A study of Mus musculus with 4 samples.

Results

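The 34 genes described here encode the receptors, vesicular transporters and postsynaptic scaffolds of the glutamate synapse, and were measured in hypothalamus RNA from WT and Tas1r3-/- mice on the western diet (WD). They were chosen by symbol as the named parts of this synapse, with earlier results of these data known, from the 16339 genes to which the RefSeq transcripts of the count table were summed. They fall into 6 classes, namely 4 AMPA, 6 NMDA and 6 kainate and delta receptor subunits, 6 metabotropic receptors, 3 vesicular transporters and 9 scaffolds. All 34 were listed, and all 34 passed the count filter and were among the 14344 genes tested.

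Glutamate is the main fast excitatory transmitter of the brain and is loaded into synaptic vesicles by the VGLUT transporters. Once released, it opens ion channels of the AMPA, NMDA and kainate families, whose relatives, the delta receptors, bind other ligands, and it activates metabotropic receptors that signal through G proteins. Scaffolds of the PSD-95, SHANK and HOMER families hold these receptors in the postsynaptic density. In the brain, VGLUT1 is the transporter of most cortical and hippocampal glutamate neurons, and VGLUT2 that of most thalamic and hypothalamic ones, while many hypothalamic neurons release GABA.

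RNA was sequenced from whole hypothalamus of male C57BL/6 mice after 12 weeks on this diet, a 60% fat diet offered with a 30% sucrose solution. There were 2 libraries of WT littermates and 2 of Tas1r3-/- mice, in which the taste receptor subunit TAS1R3 is missing from the germline and thus from all tissues, and all 4 libraries share diet, sex and strain. The comparison asks how transcript levels in the WD-fed hypothalamus differ in the absence of Tas1r3. The labels number the libraries as replicates without saying which animals they came from, so p-values measure only the spread between these libraries.

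The deposited values are estimated counts for each transcript, and they totalled between 5874782 and 6273772 per library. Levels are given as CPM, a gene's counts per 1000000 counts of the genes tested, scaled between libraries by the TMM method. At this depth a count of 0 allows up to 0.485 to 0.524 per 1000000 counts of named genes, before scaling (3 counts, counting error only). The targeted gene Tas1r3 had 35.3 and 27.0 counts in the WT WD libraries, as against 7.0 in each Tas1r3-/- WD library, in the direction of the labels (log2 fold change -2.13, standard error 0.42, edgeR's adjusted p = 0.748). On the first principal component of all genes tested (70.1% of the variance), the library labelled WT WD replicate 2 scored 63.4, against -23.1 to -17.8 in the other 3.

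The tissue label did not hold equally for the 4 libraries. Summed over 15 markers of hypothalamic neurons, WT WD replicate 1 had 1974 CPM and the Tas1r3-/- WD libraries 1435 and 1400 CPM, whereas the library labelled WT WD replicate 2 had 54.6 CPM. It was the lowest of the 4 libraries for 15 of the 15 markers, among them Pmch, Avp and Hcrt, and the hypothalamic factor Nkx2-1 had 0 counts. Markers of the thalamus, by contrast, summed to 2093 CPM in this library and to 339, 332 and 504 CPM in WT WD replicate 1 and Tas1r3-/- WD replicates 1 and 2, with 7 of 7 markers highest in it. The 3 markers of choroid plexus summed to 698 CPM there and to 1.05 to 5.30 CPM elsewhere, and the GABA neuron genes Gad1, Gad2 and Slc32a1 to 140.3 CPM against 1088 to 1127 CPM. Glial and vascular lists differed less in their sums. The 5 astrocyte markers summed to 1890 CPM in the library labelled WT WD replicate 2, against 2071 to 2282 CPM. Within that list Gfap (186 CPM against 254 to 365 CPM) and Slc1a3 were lowest there, and Aqp4 (154 CPM against 88.7 to 107 CPM) and Aldh1l1 highest. The 5 oligodendrocyte markers summed to 5733 CPM against 4533 to 5634 CPM. For 4 microglia and 3 endothelial markers the sums were 154 and 139.9 CPM, against 152 to 175 CPM and 126 to 137 CPM. Of other brain regions, 6 cortex and hippocampus markers summed to 116 CPM there and to 58.4 to 69.4 CPM elsewhere, and 7 striatal markers to 195 CPM against 207 to 365 CPM. Pituitary markers stood apart in Tas1r3-/- WD replicate 1, at 1401 CPM against at most 14.4 CPM. Pomc, among the 15 hypothalamic markers, was also highest in that library, at 343 CPM against 45.3 CPM in Tas1r3-/- WD replicate 2. It had 112 and 2.47 CPM in WT WD replicates 1 and 2. Differences in the level of a gene between genotypes are therefore described with all 4 libraries and without the library labelled WT WD replicate 2. In bulk tissue, fewer cells of a type and less RNA per cell cannot be told apart, and the part of tissue content in the differences below was not tested.

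**Figure D1:**
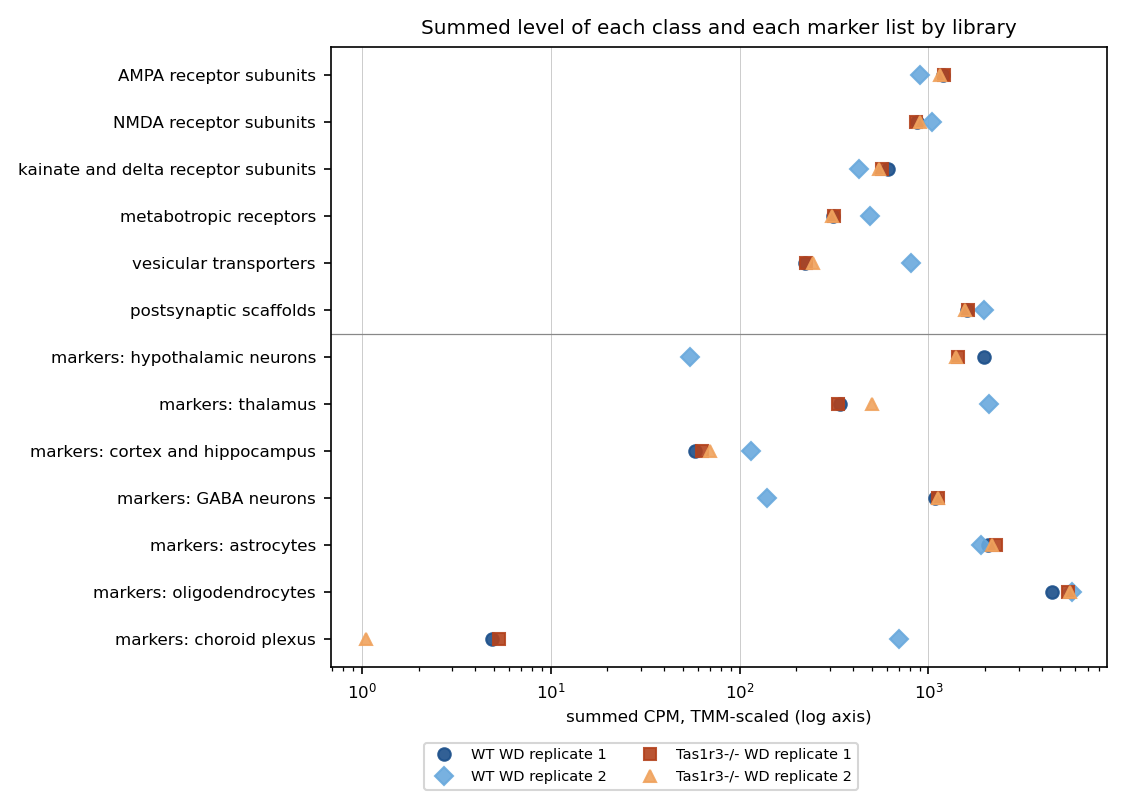
Summed CPM (log axis) of the 6 classes of glutamate synapse genes, above the line, and of 7 marker lists, below it, with 1 point per library. The 3 other libraries lie close together in every class, and the library labelled WT WD replicate 2 (light blue diamonds) lies to one side, to the left for AMPA (905 CPM) and kainate and delta subunits (430.1 CPM) and to the right for the transporters (806 CPM), with hypothalamic markers at 54.6 CPM and thalamic markers at 2093 CPM.

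Differentially expressed genes (DEGs) were those with an adjusted p under 0.05 and a change of at least 1.5-fold, a rule that none of the 14344 genes tested met with all 4 libraries, Tas1r3 included. With p-values from the quasi-likelihood test of edgeR, adjusted after Benjamini and Hochberg over all genes tested, 0 of the 34 were DEGs, where 0.0% of all genes were, so the count is no result about the 34. The smallest adjusted p among them was 0.748. At an unadjusted p under 0.05 there was 1, the transporter gene Slc17a7, where 5.48% of all genes passed. DESeq2 also called 0 of the 34 (0.0605% of all genes), with 1 at an unadjusted p under 0.05 (2.74%), and limma-trend called 0 (0.0%), with 0 at an unadjusted p under 0.05 (5.43%). Mean levels were higher in Tas1r3-/- WD for 11 of the 34 genes and lower for 23, and the median log2 fold change (log2FC, Tas1r3-/- WD minus WT WD) was -0.11, beside -0.0056 over all genes tested. Without the library labelled WT WD replicate 2, the median was 0.03, with 19 genes higher and 15 lower.

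The levels of the individual libraries show where the spread lies. Both Tas1r3-/- WD libraries were above both WT WD libraries for 5 of the 34 genes (Gria3, Grik1, Grik2, Dlg1 and Dlg2), where 20.6% of all genes were, and below them for 4 (Gria4, Grin2d, Dlg3 and Dlg4), where 18.9% were. The library labelled WT WD replicate 2 was the highest of the 4 for 14 genes and the lowest for 12, against 33.8% and 34.6% of all genes. It was at least 1.5-fold above the mean of the other 3 for 10 of the 34 genes, where 10.8% of all genes were, and at least 1.5-fold below for 6, where 12.2% were. The median size of its log2 difference from the other 3 libraries was 0.54 over the 34 genes and 0.27 over all genes tested. The same median for the Tas1r3-/- WD libraries against WT WD replicate 1 was 0.14 over the 34 genes and 0.18 over all genes.

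**Figure D2:**
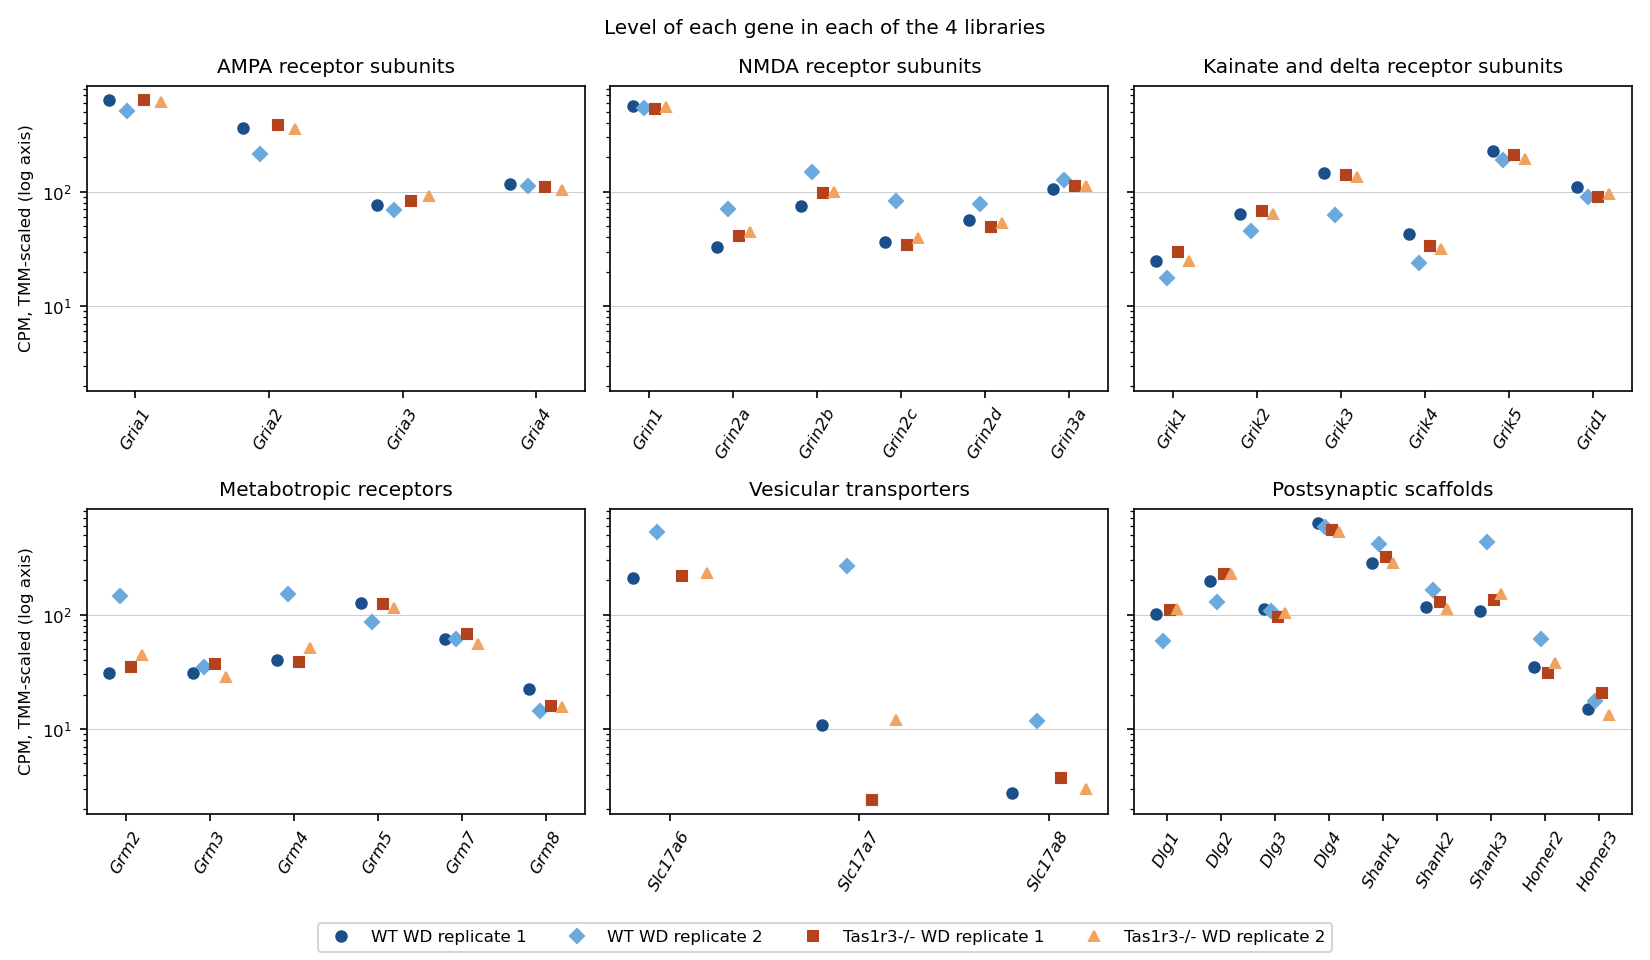
CPM (TMM-scaled, log axis) of each of the 34 genes in each library, in 6 panels by class, with 1 point per library and no averaging. Blue points are WT WD and orange-brown points Tas1r3-/- WD. Slc17a7 has the widest range, from 2.39 to 265 CPM, while Grin1 lies between 527 and 562 CPM in all 4 libraries.

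Compared with WT WD replicate 1 alone, both Tas1r3-/- WD libraries were higher for 12 of the 34 genes (37.6% of all genes) and lower for 12 (37.3%). In the fit without the library labelled WT WD replicate 2, which leaves 1 WT WD library and takes its spread from the Tas1r3-/- WD pair, 27 of the 34 log2FC values lay between -0.3 and 0.3. The full range was -0.62 for Slc17a7 to 0.40 for Grin2a. None of the 34 was a DEG by edgeR in that fit (0.156% of all genes), the smallest adjusted p being 0.20, and 7 were at an unadjusted p under 0.05 (13.8% of all genes), namely Grin2a, Grin2b, Grik4, Grid1, Grm8, Dlg4 and Shank3. With WT WD replicate 1 left out instead, so that the library labelled WT WD replicate 2 stood for WT WD, 15 of the 34 were DEGs by edgeR, where 14.5% of all genes were. The 15 were Gria2, Grin2a, Grin2b, Grin2c, Grin2d, Grik3, Grm2, Grm4, the 3 transporter genes, Dlg1, Dlg2, Shank3 and Homer2. The count of DEGs thus went from 0 to 15 with the choice of WT WD library.

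**Figure D3:**
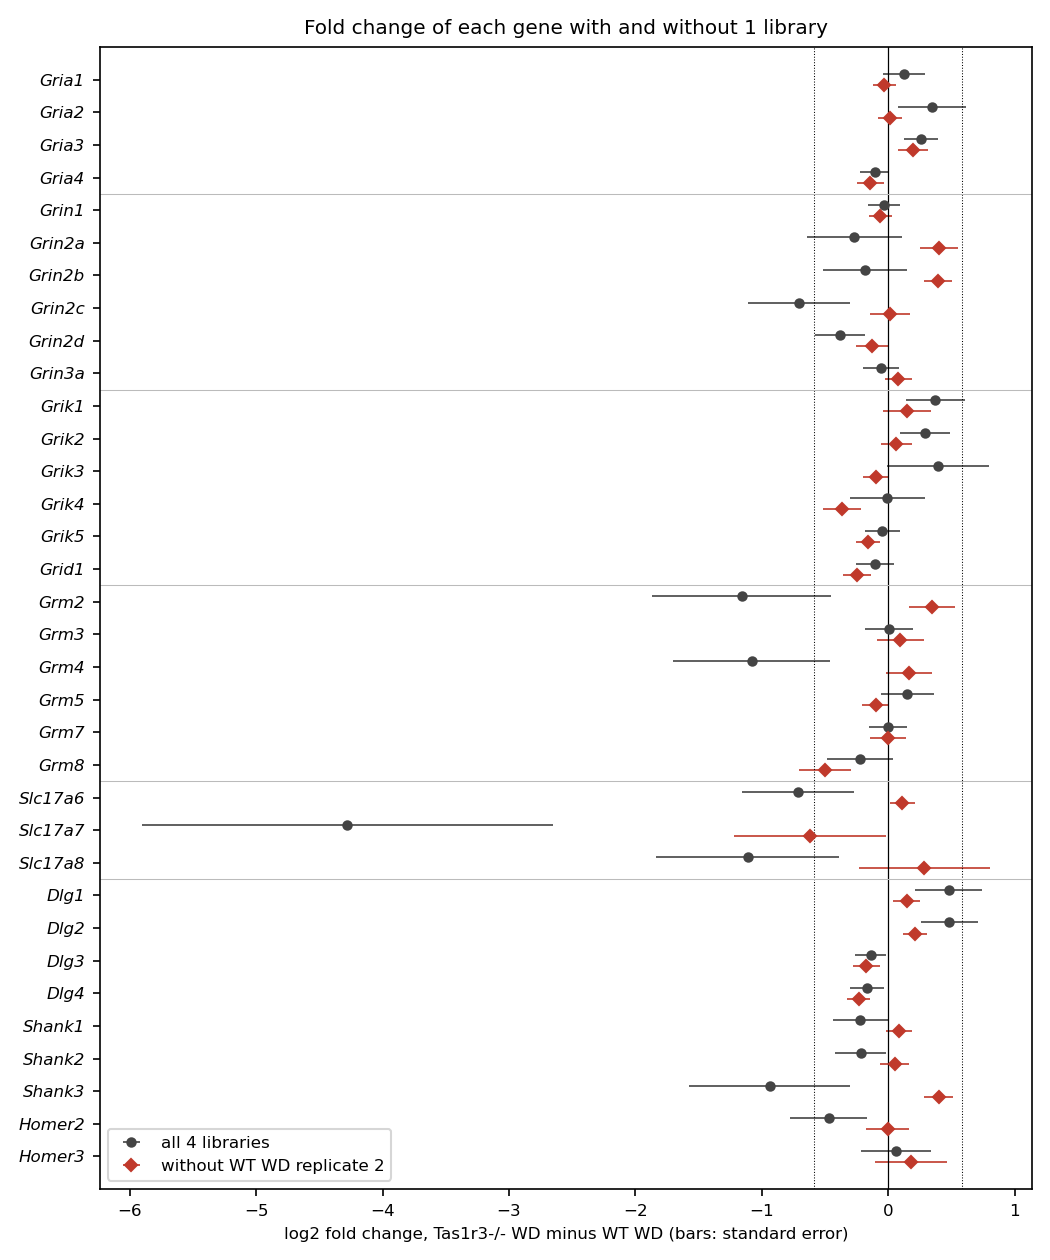
log2 fold change of each gene (Tas1r3-/- WD minus WT WD, bars are standard errors of edgeR's fit), with all 4 libraries (grey circles) and without the library labelled WT WD replicate 2 (red diamonds). Dotted lines mark 1.5-fold. The 7 genes past the dotted lines with all 4 libraries, from Grin2c (-0.70) to Slc17a7 (-4.28), are all lower in Tas1r3-/- WD, and without the 1 library only Slc17a7 (-0.62) is past them.

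The vesicular transporters had the widest spread of the 6 classes. Slc17a7 (ENSMUSG00000070570), which encodes VGLUT1, lies on the plus strand of chromosome 7 of GRCm39 from 44813305 to 44825644. Its level was 10.8 CPM in WT WD replicate 1, 265 CPM in the library labelled WT WD replicate 2, and 2.39 and 11.9 CPM in Tas1r3-/- WD replicates 1 and 2. One WT WD library was thus far above the other 3, which spanned 2.39 to 11.9 CPM, and the groups overlapped. The mean was 138 ± 180 CPM (SD, n = 2) for WT WD, and that of Tas1r3-/- WD was 7.16 ± 6.74 CPM (SD, n = 2). This gave a log2FC of -4.28 (standard error 1.62, edgeR's adjusted p = 0.748, unadjusted p = 0.0472), which was -0.62 (0.60, adjusted p = 0.689) without the library labelled WT WD replicate 2.

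Slc17a6 (ENSMUSG00000030500, VGLUT2), on the plus strand of chromosome 7 from 51271434 to 51320867, had 208 and 529 CPM in the WT WD libraries against 218 and 231 CPM in the Tas1r3-/- WD libraries. The 2 Tas1r3-/- WD libraries lay between the 2 WT WD libraries and close to WT WD replicate 1. Its log2FC was -0.72 (standard error 0.44, edgeR's adjusted p = 0.750), and 0.11 (0.10) without the library labelled WT WD replicate 2. Slc17a8 (VGLUT3, found in scattered neurons that often release another transmitter as well) was low in all libraries, at 2.75 and 11.7 CPM in WT WD against 3.70 and 2.98 CPM in Tas1r3-/- WD. Its log2FC was -1.11 (0.73, adjusted p = 0.751), and 0.28 (0.52) without that library. Summed over the 3 genes, the transporters reached 806 CPM in the library labelled WT WD replicate 2, against 222 CPM in WT WD replicate 1 and 224 and 246 CPM in Tas1r3-/- WD.

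The balance of the transporters can be read within each library, with no scaling between libraries. The log2 ratio of Slc17a7 to Slc17a6 counts was -4.26 and -1.0 in the WT WD libraries against -6.51 and -4.28 in the Tas1r3-/- WD libraries. The highest ratio was that of the library labelled WT WD replicate 2, and the lowest ratio was that of Tas1r3-/- WD replicate 1, where Slc17a7 had 14.9 estimated counts. The groups differed by -2.76, with p = 0.333 in the two-sided exact permutation test, which is the smallest p that 2 against 2 libraries can give and cannot pass 0.05. Against WT WD replicate 1 alone the difference was -1.13. The log2 ratio of Slc17a6 to the summed GABA neuron genes was -2.39 in WT WD replicate 1, -2.37 and -2.28 in Tas1r3-/- WD, and 1.92 in the library labelled WT WD replicate 2.

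The upstream sequences of Slc17a6 and Slc17a7, whose balance varied widely between libraries, and of the scaffold gene Shank3 are shown with the CREB and EGR motifs of activity-regulated genes. RefSeq windows of 300 bases on GRCm38.p6 were held for 23 of the 34 genes, in 37 windows, and the 250 bases before each start were searched on both strands. The full cAMP response element TGACGTCA was in 0 of the 37 windows and in 1.55% of all 32851. Its half-site, TGACG or CGTCA, which the full element contains, was in 5 windows (Dlg3, Dlg4, Grin1, Grm8 and the second window of Slc17a6) and in 17.8% of all windows. The EGR motif GCGNGGGCG was in 3 (Gria4, Homer2 and Shank3) and in 4.7% of all windows. A match describes these letters only and is not a bound site. Capitals mark half-sites and EGR motifs, and the bases of Slc17a7 nearest its start, which a GENCODE transcript holds, are left out.
Slc17a6, second window, chr7:51624387-51624636, plus strand: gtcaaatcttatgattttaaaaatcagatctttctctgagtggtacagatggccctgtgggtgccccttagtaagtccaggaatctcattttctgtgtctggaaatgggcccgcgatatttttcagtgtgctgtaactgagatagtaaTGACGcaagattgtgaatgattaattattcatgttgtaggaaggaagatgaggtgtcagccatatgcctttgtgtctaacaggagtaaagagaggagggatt
Slc17a7, chr7:45163671-45163880, plus strand: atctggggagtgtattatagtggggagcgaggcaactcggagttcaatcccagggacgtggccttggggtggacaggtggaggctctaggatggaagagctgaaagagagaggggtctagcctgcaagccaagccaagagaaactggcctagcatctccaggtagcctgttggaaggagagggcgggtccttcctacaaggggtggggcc
Shank3, chr15:89499358-89499607, plus strand: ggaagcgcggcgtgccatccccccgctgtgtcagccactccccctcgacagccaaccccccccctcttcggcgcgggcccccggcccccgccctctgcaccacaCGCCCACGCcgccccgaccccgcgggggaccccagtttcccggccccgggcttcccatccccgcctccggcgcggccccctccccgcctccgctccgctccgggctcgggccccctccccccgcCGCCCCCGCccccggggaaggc
The Slc17a6 window thus held 1 half-site, the Slc17a7 window no match, and the Shank3 window 2 EGR motifs on the minus strand.

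AMPA receptor subunits form the tetrameric channels that carry most fast excitatory current. Gria1 (GluA1), the most abundant of them by CPM, had 635 and 508 CPM in WT WD against 634 and 609 CPM in Tas1r3-/- WD. Gria2 encodes GluA2, the subunit that makes the channel impermeable to calcium, and had 362 and 215 CPM in WT WD against 381 and 351 CPM in Tas1r3-/- WD. For both genes the library labelled WT WD replicate 2 was the lowest. WT WD replicate 1 lay just above both Tas1r3-/- WD libraries for Gria1 and between them for Gria2. The log2FC of Gria2 was 0.34 (standard error 0.27, edgeR's adjusted p = 0.765), and 0.01 (0.10) without that library, and 0.090 with the trend of levels on transcript length removed.

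Gria4 had the largest difference downward of the class, at 118 and 112 CPM in WT WD against 110 and 104 CPM in Tas1r3-/- WD, a log2FC of -0.11 (0.12, edgeR's adjusted p = 0.810) and of -0.14 (0.11) without the library labelled WT WD replicate 2. Gria3 had 76.6 and 69.9 CPM in WT WD against 82.7 and 92.5 CPM in Tas1r3-/- WD, with groups that did not overlap and a log2FC of 0.26 (0.13, adjusted p = 0.748), or 0.19 (0.12) without that library. Both genes had like levels in the 2 WT WD libraries, and neither passed the test. Counts divided among the 4 subunits in similar proportions in 3 libraries, with Gria2 at 30.4% in WT WD replicate 1 and 31.5% and 30.4% in Tas1r3-/- WD, and 23.8% in the library labelled WT WD replicate 2. The Gria2 share differed by 3.87 percentage points between groups (two-sided exact permutation test, p = 0.667) and by 0.550 points against WT WD replicate 1 alone. Gria1 took between 52.5% and 56.1%, Gria4 between 8.99% and 12.4% and Gria3 between 6.43% and 8.01%.

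**Figure D4:**
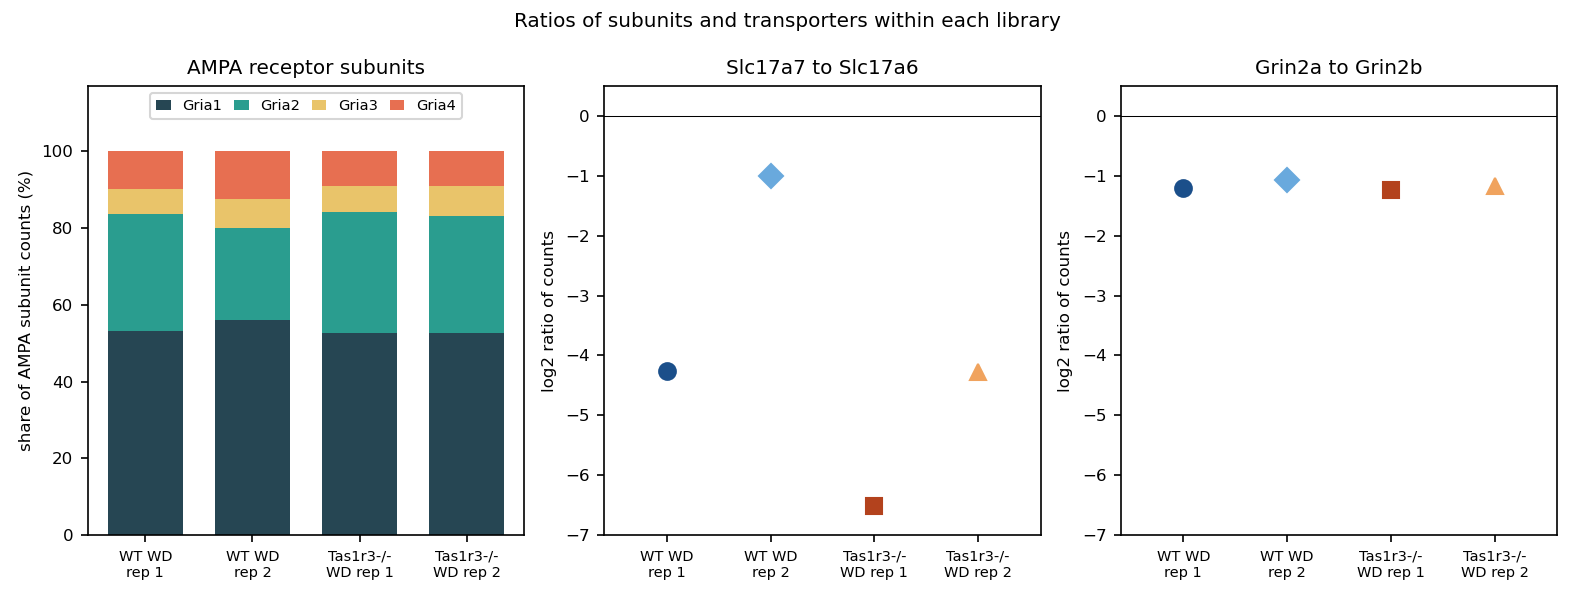
Left, share of each subunit in the summed AMPA subunit counts of a library (%), stacked. Middle and right, log2 ratio of Slc17a7 to Slc17a6 counts and of Grin2a to Grin2b counts, with 1 point per library on the same scale. The transporter ratio spans -6.51 to -1.0, while the NMDA subunit ratio stays between -1.23 and -1.07.

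NMDA receptors are coincidence detectors that pair the obligatory GluN1 subunit with GluN2 or GluN3 subunits. Grin1 (GluN1, ENSMUSG00000026959, minus strand of chromosome 2, from 25181186 to 25209226) had 562 and 538 CPM in WT WD against 527 and 547 CPM in Tas1r3-/- WD. All 4 libraries lay within a narrow range, and the log2FC was -0.03 (standard error 0.13, edgeR's adjusted p = 0.950), and -0.07 (0.09) without the library labelled WT WD replicate 2. Unlike Grin1, 5 of the 6 NMDA subunit genes were highest in the library labelled WT WD replicate 2.

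Grin2b (GluN2B, the subunit typical of the immature brain) had 75.1 and 149 CPM in WT WD against 97.1 and 100.1 CPM in Tas1r3-/- WD, and Grin2a (GluN2A, typical of the adult brain) had 32.6 and 70.9 CPM in WT WD against 41.4 and 44.5 CPM in Tas1r3-/- WD. In both genes the Tas1r3-/- WD libraries lay between the WT WD libraries. The log2FC of Grin2b was -0.19 (0.33, edgeR's adjusted p = 0.888) and changed sign to 0.39 (0.11, adjusted p = 0.20) without the library labelled WT WD replicate 2, and that of Grin2a was -0.27 (0.38, adjusted p = 0.854) and 0.40 (0.15, adjusted p = 0.30). With the trend of levels on transcript length removed from all 4 libraries, the 2 genes were at -0.62 and -0.61, and the median of the class went from -0.23 to -0.53. The log2 ratio of Grin2a to Grin2b counts was -1.20 and -1.07 in WT WD against -1.23 and -1.17 in Tas1r3-/- WD, a difference of -0.06 (two-sided exact permutation test, p = 0.667). Their ratio therefore moved far less between libraries than either level.

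Grin2c (GluN2C) had the largest difference of the class, at 36.6 and 83.7 CPM in WT WD against 34.2 and 39.7 CPM in Tas1r3-/- WD, a log2FC of -0.70 (0.41, edgeR's adjusted p = 0.748) that was 0.01 (0.16) without the library labelled WT WD replicate 2. Grin2d (GluN2D) had 56.1 and 78.0 CPM in WT WD against 49.3 and 53.7 CPM in Tas1r3-/- WD. Its groups did not overlap, but WT WD replicate 1 lay next to the Tas1r3-/- WD libraries, and the log2FC went from -0.38 (0.20, adjusted p = 0.748) to -0.13 (0.13, adjusted p = 0.712) without the other WT WD library. Grin3a (GluN3A) ranged from 106 to 128 CPM.

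Kainate and delta receptor subunits ran the other way, with 5 of 6 genes lowest in the library labelled WT WD replicate 2. Grik3 (GluK3) had 146 and 62.2 CPM in WT WD against 139 and 134 CPM in Tas1r3-/- WD, and only the library labelled WT WD replicate 2 was low. Its log2FC was 0.39 (standard error 0.40, edgeR's adjusted p = 0.804), and -0.10 (0.10) without that library. Grik5 (GluK5, a subunit that needs GluK1 to GluK3 partners) was the most abundant of the class by CPM, at 225 and 191 CPM in WT WD against 208 and 194 CPM in Tas1r3-/- WD, and its groups overlapped. Grid1 (the delta receptor GluD1, which binds cerebellins) had 110.4 and 90.1 CPM in WT WD against 90.0 and 96.3 CPM in Tas1r3-/- WD, a log2FC of -0.11 (0.15, adjusted p = 0.855) and of -0.25 (0.11, adjusted p = 0.358) without that library. Grik1 (17.6 to 29.9 CPM), Grik2 (45.0 to 68.1 CPM) and Grik4 (24.0 to 42.3 CPM) were each lowest in the library labelled WT WD replicate 2. The class median of the log2FC was 0.14 with all libraries and -0.13 without that library.

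Metabotropic receptors differed among themselves in which library stood apart. Grm2 (mGlu2, a presynaptic receptor that lowers transmitter release) had 31.1 and 146 CPM in WT WD against 34.9 and 44.4 CPM in Tas1r3-/- WD, and Grm4 (mGlu4, likewise presynaptic) had 40.2 and 150.3 CPM in WT WD against 38.7 and 51.4 CPM in Tas1r3-/- WD. Both were far higher in the library labelled WT WD replicate 2, at 3.97 and 3.46 times the mean of the other 3. The log2FC of Grm2 was -1.16 (standard error 0.71, edgeR's adjusted p = 0.749) and that of Grm4 -1.08 (0.62, adjusted p = 0.748), and they were 0.35 (0.18) and 0.16 (0.18) without that library. Grm5 (mGlu5, a postsynaptic receptor coupled to calcium release) was the most abundant by CPM, at 127 and 86.5 CPM in WT WD against 123 and 114 CPM in Tas1r3-/- WD, with a log2FC of 0.15 (0.21, adjusted p = 0.856) that was -0.10 (0.11) without the library labelled WT WD replicate 2. Grm3 and Grm7 varied little, at 28.8 to 36.8 and 55.6 to 67.2 CPM, and their log2FC was near 0, its sign turning with the scaling. Grm8 had 22.2 and 14.5 CPM in WT WD against 16.0 and 15.4 CPM in Tas1r3-/- WD, so that here WT WD replicate 1 was the library apart. The 6 genes summed to 313, 316 and 309 CPM in WT WD replicate 1 and Tas1r3-/- WD replicates 1 and 2, and to 493 CPM in the library labelled WT WD replicate 2.

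Among the scaffolds, the PSD-95 family kept near the same level across libraries for some members and not for others. Dlg4 (PSD-95 itself, ENSMUSG00000020886, plus strand of chromosome 11, from 69907768 to 69938348) was the most abundant by CPM, at 637 and 579.8 CPM in WT WD against 550.3 and 531 CPM in Tas1r3-/- WD. Its 2 Tas1r3-/- WD libraries were below both WT WD libraries, with a log2FC of -0.17 (standard error 0.14, edgeR's adjusted p = 0.765) that did not rest on the library labelled WT WD replicate 2, being -0.23 (0.09, adjusted p = 0.301) without it. Dlg3 (SAP102) was likewise lower in both Tas1r3-/- WD libraries, at 112 and 107 CPM in WT WD against 95.4 and 103 CPM in Tas1r3-/- WD. Its log2FC of -0.14 (0.12, adjusted p = 0.774) did not pass the test either, nor did that of -0.17 (0.11) without the library labelled WT WD replicate 2.

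Dlg2 (PSD-93) had 196 and 128 CPM in WT WD against 226 and 227 CPM in Tas1r3-/- WD, and Dlg1 (SAP97) had 100.5 and 59.1 CPM in WT WD against 111 and 111 CPM in Tas1r3-/- WD. In both genes the groups did not overlap, and the library labelled WT WD replicate 2 made up most of the gap. Dlg2 had a log2FC of 0.48 (0.23, edgeR's adjusted p = 0.748), the largest of the 34 upward, and 0.21 (0.10, adjusted p = 0.371) without that library. For Dlg1 it was 0.48 (0.27, adjusted p = 0.748) and 0.14 (0.11, adjusted p = 0.586).

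Shank3, which encodes a master scaffold that links receptor complexes to HOMER proteins and actin, had 108 and 436 CPM in WT WD against 133 and 150.3 CPM in Tas1r3-/- WD. The Tas1r3-/- WD libraries lay between the WT WD libraries, above WT WD replicate 1. Its log2FC of -0.94 (0.64, edgeR's adjusted p = 0.751) changed sign to 0.40 (0.11, adjusted p = 0.202) without the library labelled WT WD replicate 2. Homer2 had 34.5 and 61.0 CPM in WT WD against 31.1 and 37.7 CPM in Tas1r3-/- WD, a log2FC of -0.47 (0.31, adjusted p = 0.751) that was near 0 without that library. Shank1 (281 to 415 CPM) and Shank2 (112 to 164 CPM) were highest in it, and Homer3 ranged from 13.3 to 20.7 CPM. The genes highest in the library labelled WT WD replicate 2 were divided when the Tas1r3-/- WD libraries were set against WT WD replicate 1. Both were above it for Grin2a, Grin2b, Grin3a, Grm2, Slc17a6, Slc17a8 and Shank3, where 37.6% of all genes were. They lay on either side of it for Grin2c, Grm4, Slc17a7, Shank1, Shank2 and Homer2, and both were below it for Grin2d. The summed thalamic markers were at 339 CPM in WT WD replicate 1 and at 332 and 504 CPM in Tas1r3-/- WD replicates 1 and 2. Most of that sum was Calb2, at 263 CPM against 211 and 280 CPM. Tcf7l2 (10.8 CPM against 26.8 and 42.6 CPM), Prkcd, Rora and Plekhg1 were higher in both Tas1r3-/- WD libraries. Lef1 had 6.05 CPM against 5.80 and 11.75 CPM, and Tnnt1 0.0 CPM against 0.19 and 10.0 CPM. The part of thalamic content in the levels of the genes highest in the library labelled WT WD replicate 2 was not tested.

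Levels of different genes can be compared only per transcript length, here the length of the GENCODE canonical transcript. On that scale, averaged over the 4 libraries, the highest were Grin1 at 126 CPM per kb, Dlg4 at 105 and Gria1 at 101, followed by Slc17a6 at 66.6 and Grik5 at 43.0 CPM per kb. The lowest were Slc17a8 at 1.13, Grin2a at 3.19 and Grin2b at 4.35 CPM per kb, the last 2 being among the longest transcripts of the set. Without the library labelled WT WD replicate 2, Slc17a7 went from 23.9 to 2.76 CPM per kb and so below Grin2b at 3.74, Gria1 at 106 came above Dlg4 at 105, and Slc17a6 stood at 49.2 CPM per kb. The order in the middle depended on the length used, since with the median length of a gene's coding transcripts Shank3 went from 28.1 to 80.3 and Grik3 from 13.0 to 46.4 CPM per kb.

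The 34 genes were counted over 94 RefSeq transcripts, of which 90 were tested, and 11 genes had a single transcript. By edgeR, 0 of the 90 transcripts were called (0.0% of all 25699 transcripts tested), and 9 were at an unadjusted p under 0.05 (5.26% of all). For 8 of the 9, which come from 6 genes with several transcripts, the share of the gene's counts can be set beside the test, although both use the same counts and the groups were bound to differ in them. Transcript NM_001252436 of Dlg1 took 19.0% and 15.9% of the gene's estimated counts in WT WD against 33.9% and 40.5% in Tas1r3-/- WD. The 2 WT WD libraries lay close together here, and the log2FC of the transcript was 1.53 (standard error 0.38, edgeR's adjusted p = 0.866). NM_001164086 of Homer2 took 68.5% and 46.3% in WT WD against 39.9% and 16.2% in Tas1r3-/- WD, with a log2FC of -1.48 (0.40, adjusted p = 0.866). NM_001276355 of Grin3a took 61.1% and 50.1% in WT WD against 42.3% and 37.3% in Tas1r3-/- WD. For Homer2 the 2 libraries of each genotype were far apart, and how reads were divided among overlapping transcripts was the authors' estimate. The transcripts were tested with all 4 libraries only.

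**Figure D5:**
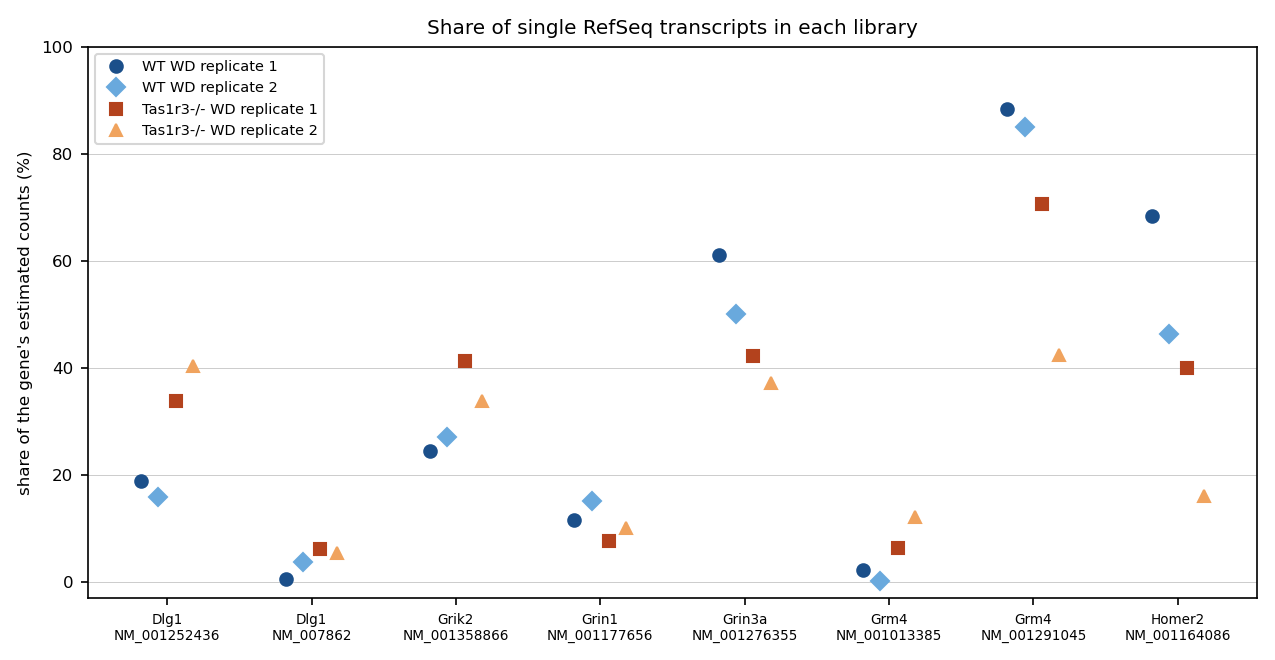
Share of the gene's estimated counts (%) that each of 8 RefSeq transcripts took in each library, with 1 point per library. The transcripts are those at an unadjusted p under 0.05 in genes with more than 1 transcript, so a gap between the genotypes is expected from how they were picked. The widest gap within a genotype is that of Grm4 NM_001291045 in Tas1r3-/- WD, at 70.7% and 42.4%.

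A further list of glutamate synapse genes held auxiliary subunits, plasma membrane transporters, enzymes and carriers of the glutamine cycle, other postsynaptic proteins and synapse organisers. Of 58 tested, 25 were higher and 33 lower in Tas1r3-/- WD, 0 were DEGs by edgeR, and 7 were at an unadjusted p under 0.05, where 5.48% of all genes were. Slc38a2 (SNAT2, a carrier of glutamine) had 96.5 and 100.2 CPM in WT WD against 164 and 168 CPM in Tas1r3-/- WD, and Homer1 (a scaffold with an activity-induced short form) had 23.5 and 22.7 CPM in WT WD against 43.9 and 37.6 CPM in Tas1r3-/- WD. In both genes the 2 WT WD libraries were close together and below both Tas1r3-/- WD libraries. Slc38a2 had a log2FC of 0.76 (standard error 0.12, edgeR's adjusted p = 0.748) and Homer1 one of 0.81 (0.16, adjusted p = 0.748). Without the library labelled WT WD replicate 2, which leaves 1 WT WD library, Slc38a2 was at 0.78 (0.10) and Homer1 at 0.79 (0.17). That fit takes its spread from the Tas1r3-/- WD pair alone.

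The other 5 at an unadjusted p under 0.05 were Neto2, an auxiliary subunit of kainate receptors, with a log2FC of 0.44, and Cnih2 (-0.52), Cnih3 (-0.50), Cbln1 (-0.34) and Nptx2 (-1.21). Cnih2 and Cnih3 encode auxiliary subunits of AMPA receptors, and Cbln1 and Nptx2 encode secreted organisers of synapses. All 5 kept their sign without the library labelled WT WD replicate 2, at 0.36, -0.24, -0.47, -0.42 and -0.36, and none of the 5 was a DEG by edgeR there. The largest differences among genes of at least 10 CPM, Nptx2, Nptxr (-1.06) and Dlgap3 (-1.06), were again those highest in that library, where Nptx2 had 169 CPM against 47.1 to 65.2 CPM in the other 3, Nptxr 624 CPM against 193 to 216 CPM and Dlgap3 435 CPM against 123 to 146 CPM. Without it, Nptxr was at -0.10 and Dlgap3 at 0.12.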

How the data were processed

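RNA-seq values of 4 hypothalamus libraries, 2 WT WD and 2 Tas1r3-/- WD, were analysed. Reads came from Ion Torrent libraries, and STAR in Partek placed them on mm39 (GRCm39). The authors deposited an estimated count (an expected count, not normalized) for each transcript of RefSeq release 93. Of these values 13.0% are whole numbers. Reads shared by isoforms or paralogs were divided by the authors' estimate. Transcripts were summed to genes by RefSeq accession (30891 of 30930 named, with the names of GRCm38.p6) and rounded, and the 39 unnamed ones, 0.347% to 2.49% of a library, were left out. Coordinates are from GENCODE M39, matched by symbol for 15824 genes.

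Differences were tested in edgeR 4.0.16 (R 4.3.3) by the quasi-likelihood test with TMM scaling, filterByExpr and Benjamini-Hochberg adjustment. Groups came from the sample labels. Alternatives were RLE factors, total counts, DESeq2 1.42.0, limma-trend (limma 3.58.1), the earlier quasi-likelihood method, no filter, at least 10 counts in every library, a replicate block, a length trend removed by loess (span 0.3), transcripts in place of genes, and each library left out. The test was checked on simulated data. Principal components used log2 CPM with a prior count of 2. Genes with values for every library are, in each class, the largest rise, the largest fall and the most abundant, those at an unadjusted p under 0.05 or called by any alternative, and the transporters. Of further glutamate genes they are those at an unadjusted p under 0.05 and the 3 largest changes of at least 10 CPM. Gria3, Grin3a, the remaining Grik genes, Grm3, Grm7, Grm8, Dlg3, Shank1, Shank2, Homer3 and the transcripts were named after their values were seen. The 34 genes and all lists were chosen with earlier results of these data known.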

Additional observations from a re-analysis of the deposited data

How the results depend on the processing

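With 2 libraries per group, 1 library decided most values. Leaving out each library in turn gave 0 to 15 DEGs among the 34 genes and 0 to 23 at an unadjusted p under 0.05, with 9 to 19 genes higher in Tas1r3-/- WD and a median log2 fold change of -0.16 to 0.032. The share of all genes at an unadjusted p under 0.05 went from 0.601% to 34%. Genes with every Tas1r3-/- WD library kept above every WT WD library kept numbered 5 to 12 (29.7% to 41.7% of all genes), and below 9 to 17 (30.0% to 40.5%). The 15 DEGs arose without WT WD replicate 1. Of 442 recomputed log2 fold changes of the 34 genes, 35 changed sign, 26 of them on leaving out 1 library (14 when WT WD replicate 2 was dropped, 8 when WT WD replicate 1 was).

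Over these left-out libraries the class medians ranged from -0.0080 to 0.32 for AMPA, -0.59 to 0.046 for NMDA, -0.13 to 0.51 for kainate and delta subunits, -0.22 to 0.045 for metabotropic receptors, -1.79 to 0.11 for transporters and -0.30 to 0.083 for scaffolds. Single genes that changed sign ranged from -0.031 to 0.30 (Gria1), -0.069 to 0.0034 (Grin1), -0.72 to 0.40 (Grin2a), -0.59 to 0.39 (Grin2b), -1.18 to 0.012 (Grin2c), -0.18 to 0.080 (Grin3a), -0.10 to 1.14 (Grik3), -0.36 to 0.46 (Grik4), -0.16 to 0.080 (Grik5), -0.25 to 0.052 (Grid1), -1.88 to 0.35 (Grm2), -0.18 to 0.16 (Grm3), -1.73 to 0.16 (Grm4), -0.10 to 0.46 (Grm5), -0.15 to 0.12 (Grm7), -0.50 to 0.12 (Grm8), -1.23 to 0.11 (Slc17a6), -1.79 to 0.28 (Slc17a8), -0.47 to 0.083 (Shank1), -0.44 to 0.049 (Shank2), -1.61 to 0.40 (Shank3) and -0.30 to 0.33 (Homer3). The difference in the log2 ratio of Grin2a to Grin2b ranged from -0.12 to 0.0048 and that in the Gria3 share from -0.294 to 0.997 percentage points.

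With all libraries kept, sign changes were confined to values near 0. Grm3 was at -0.0020 with RLE factors, -0.0019 with DESeq2, -0.0039 with limma-trend, -0.0028 with the replicate block and -0.062 with the length trend removed, Grm7 at 0.0064 with total counts, Grik4 at 0.045 with limma-trend and 0.039 with the block, and with the length trend removed Grm5 was at -0.040 and the median of kainate and delta subunits at -0.013. Removing that trend also moved uncalled values by over 1.5 times, among them to -0.61 (Grin2a), -0.62 (Grin2b), -0.46 (Shank1), -0.47 (Shank2), 0.090 (Gria2), 0.072 (Grik2) and 0.18 (Grik3), and the medians to -0.53 (NMDA), 0.063 (AMPA) and -0.20 (all 34), with that of all genes at -0.019. With limma-trend 0 of the 34 were at an unadjusted p under 0.05. The replicate numbers only share a label (correlation 0.082 for replicate 1), and the block, with 0 DEGs, 1 gene at an unadjusted p under 0.05 and a median of -0.10, changed no call. Dividing each transcript's counts by its length was not run, since no RefSeq transcript lengths were at hand. Depth allows little to be said of Slc17a8, with 16.0 to 71.0 counts per library, and groups of 2 libraries were too small for a search for single outlying libraries.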
